A study of Mus musculus with 5 samples.

Results

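The genes described here encode the cargo of the neutrophil primary (azurophil) granule, the enzyme and the proteoglycan that prepare and pack this cargo, and a membrane protein of the same developmental stage. They are 8 of the 14807 genes with a probe set of a single gene symbol, namely Mpo, Elane, Prtn3, Ctsg, Ctsc, Ms4a3, Srgn and Bpi, and they were taken by name. Each has 1 such probe set. The study sorted CD11b+Gr1+ cells, about 100000 per RNA sample, from the lungs of wild-type mice and measured their RNA on whole-transcript arrays. The 2 tumour-challenged arrays come from mice examined 9 days after 5000000 LLC-RFP cells (Lewis lung carcinoma cells carrying a red fluorescent protein) were placed under the skin, and the 3 control arrays from wild-type mice without tumour cells. Neither the animals' age nor whether a sample pools several animals is given in the sources used here, so p-values measure the spread between these samples, which may in part be technical. The question is whether a tumour growing under the skin is accompanied by other transcript levels in myeloid cells of the lung.

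Primary granules form at the promyelocyte stage, in the bone marrow, before secondary and tertiary granules appear. Their transcripts are switched off as the cells mature, while the proteins persist in the granules of the circulating neutrophil. Myeloid transcription factors, among them PU.1 (gene Spi1), MYB and the C/EBP family, drive these genes, and serglycin holds the basic proteins inside the granule. Early monocyte precursors express several of the same genes.

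Prtn3 and Elane are direct neighbours among the protein-coding genes of the mouse annotation and encode related serine proteases, so their promoters are shown first. Those of Mpo and Ctsg follow, because their arrays, like those of Prtn3 but not of Elane, did not overlap between the groups. The windows run from 250 bases before to 50 bases after the annotated start, 5′ to 3′ on the gene's strand, and come from RefSeq on GRCm38.p6. Capitals mark letters matching GAGGAA (the core bound by PU.1), AACGG (a core bound by MYB) or TTNNGNAA (a loose spelling of the C/EBP site), each searched on both strands.
Prtn3 promoter (chr10:79879417-79879716, strand +): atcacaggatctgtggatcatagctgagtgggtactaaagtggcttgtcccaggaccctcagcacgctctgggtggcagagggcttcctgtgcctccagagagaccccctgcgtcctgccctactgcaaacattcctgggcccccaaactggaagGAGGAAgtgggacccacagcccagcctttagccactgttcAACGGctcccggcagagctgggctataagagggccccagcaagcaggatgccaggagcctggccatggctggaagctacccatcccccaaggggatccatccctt
Elane promoter (chr10:79886062-79886361, strand +): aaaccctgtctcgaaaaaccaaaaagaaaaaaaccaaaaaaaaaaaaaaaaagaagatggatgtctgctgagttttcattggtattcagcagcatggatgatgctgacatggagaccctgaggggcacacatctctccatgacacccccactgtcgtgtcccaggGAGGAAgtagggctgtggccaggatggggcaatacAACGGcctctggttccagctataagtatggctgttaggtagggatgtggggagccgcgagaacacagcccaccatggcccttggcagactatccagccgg
Mpo promoter (chr11:87793534-87793833, strand +): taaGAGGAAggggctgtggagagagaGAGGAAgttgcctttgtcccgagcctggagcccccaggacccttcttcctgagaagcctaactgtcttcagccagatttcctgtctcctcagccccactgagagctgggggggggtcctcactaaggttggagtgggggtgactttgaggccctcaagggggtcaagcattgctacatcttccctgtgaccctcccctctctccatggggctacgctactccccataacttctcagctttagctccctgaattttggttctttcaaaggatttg
Ctsg promoter (chr14:56102525-56102824, strand -): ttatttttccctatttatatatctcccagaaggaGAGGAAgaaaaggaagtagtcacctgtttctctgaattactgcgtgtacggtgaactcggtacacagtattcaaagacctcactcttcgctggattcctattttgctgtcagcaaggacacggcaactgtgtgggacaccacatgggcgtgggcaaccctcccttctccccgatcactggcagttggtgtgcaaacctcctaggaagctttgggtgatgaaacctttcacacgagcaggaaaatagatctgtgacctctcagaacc

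The Prtn3 and Elane windows share the same arrangement of letters. GAGGAA lay at bases -95 to -90 of Prtn3 and at -85 to -80 of Elane, and AACGG followed at -55 to -51 and at -50 to -46. The Mpo window held GAGGAA at -247 to -242 and at -224 to -219, and the Ctsg window at -216 to -211, and neither held AACGG. No match to TTNNGNAA stood in these 4 windows, and no matches overlapped in them. RefSeq windows were matched for all 8 members, 9 windows in all because Srgn has 2 starts. GAGGAA was present in 7 of the 9, AACGG in 2 and TTNNGNAA in 2 (Ms4a3 and the second Srgn start, where 2 of the 5 matches overlap). Of all 32851 promoter windows of this length 28.3% held GAGGAA, 17.4% AACGG, 40.7% TTNNGNAA, and 5.03% both GAGGAA and AACGG. These matches describe letters in the window and are not measured binding.

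**Figure D1:**
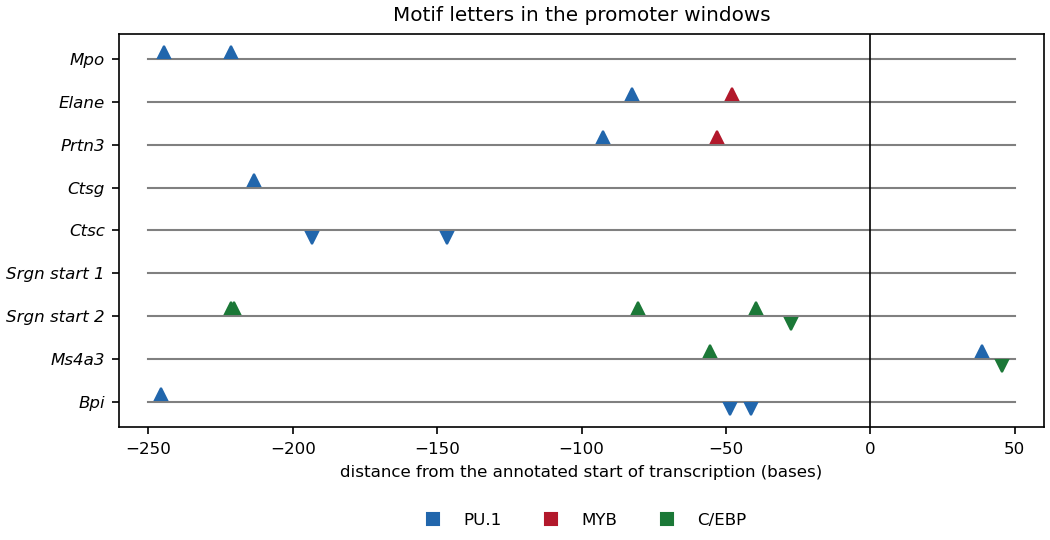
Positions of the 3 motifs in the promoter windows of the 8 members, with the distance from the annotated start of transcription in bases on the horizontal axis. Triangles pointing up are matches on the gene's strand and triangles pointing down matches on the other strand. Prtn3 and Elane are the 2 windows with AACGG, each downstream of a GAGGAA.

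The sort itself was represented by bright signals. Itgam, which encodes CD11b, lay between 10.60 and 11.11 on the log2 scale over the 5 arrays, and the neutrophil calcium-binding protein gene S100a9 between 12.55 and 12.84. Lung epithelial markers were in part as bright, with Sftpc between 11.20 and 12.45 and Scgb1a1 between 9.48 and 11.00. Cdh1 and Epcam reached at most 7.23 and 7.17. The share of RNA from cells outside the sorted type was not tested. Ly6g and Ly6c2, which encode Gr1 epitopes, had no probe set of a single symbol and were not analysed here. A level was called above background when it exceeded 6.895, the 95th percentile of 832 probe sets of olfactory, vomeronasal and taste receptor genes, whose median was 5.23. Array medians ran from 6.77 to 6.88 and upper quartiles were lowest on the array of control replicate 3 (7.90) and highest on that of tumour-challenged replicate 1 (8.23). Over all 16661 probe sets the difference between the groups had a median of 0.024 log2.

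The members fell into separate classes by signal. Ctsc and Srgn exceeded the background level on 5 arrays, Mpo on 4 and Prtn3 on 2. Elane, Ctsg, Ms4a3 and Bpi exceeded it on 0 of the 5. The label of primary granule genes therefore holds for what the genes encode, while 4 of the 8 transcripts were not separable from background in these cells.

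Among the differences between the groups, Prtn3 and Ctsg lay higher after tumour challenge, Mpo lay lower, and Elane and Bpi were nearly equal in both groups. None of the 8 passed limma's test with Benjamini-Hochberg adjustment over the whole array (adjusted p from 0.537 for Prtn3 to 1.0 for Bpi), and neither did any other probe set (0%, smallest adjusted p 0.495). At an unadjusted p under 0.05 there were 2 members higher and 0 lower, beside 3.58% of all probe sets higher (597) and 2.96% lower (493). The arrays did not overlap for 2 members higher and 1 lower, where 11.2% of all probe sets were separate and higher and 7.83% separate and lower. With the 2-fold threshold on group means that the design text states, no member was higher (0.144% of probe sets were) and none lower (0.132%). Of the differences 4 were positive and 4 negative, with a median of 0.044 log2. In sorted bulk RNA, fewer cells of a type and less RNA per cell cannot be told apart.

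**Figure D2:**
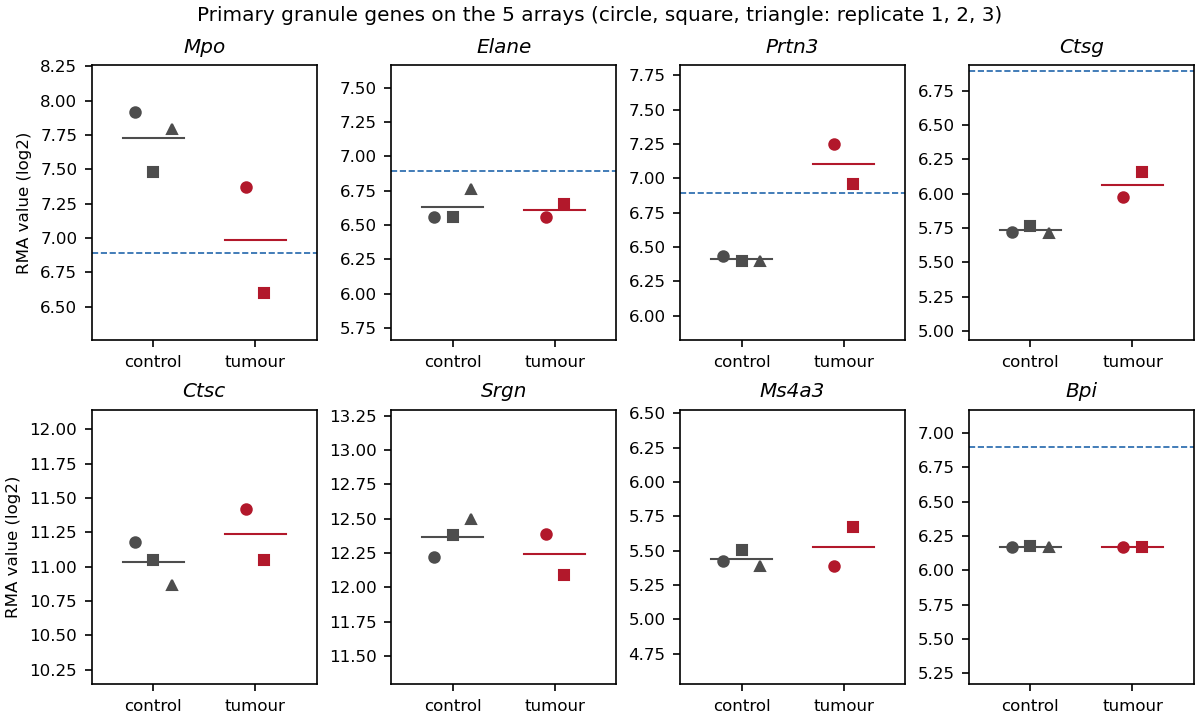
Deposited log2 RMA values (vertical axes, each spanning 2 log2 units) of the 8 members in the 3 control arrays (grey) and the 2 tumour-challenged arrays (red), with each group's mean as a line and the background level of 6.895 dashed where it lies in range. Prtn3 and Ctsg are higher on both tumour-challenged arrays, Mpo is lower with its tumour-challenged arrays 0.775 apart, and the other members overlap.

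Of the serine proteases, Prtn3 had the clearest separation. It encodes proteinase 3, a protease that cleaves matrix proteins and is the main target of the autoantibodies of granulomatosis with polyangiitis in humans. Its log2 values were 7.25 and 6.96 in tumour-challenged replicates 1 and 2 and 6.44, 6.40 and 6.40 in control replicates 1, 2 and 3 (probe set 6769154). Both tumour-challenged arrays lay above every control array, and the gap of 0.52 between the groups exceeded the distance of 0.29 between the tumour-challenged arrays and of 0.038 among the controls. The means were 7.10 ± 0.21 (SD, n = 2) after tumour challenge and 6.41 ± 0.022 (SD, n = 3) in controls, so that the difference was 0.69 ± 0.10 log2 (SE), or 1.62-fold (limma adjusted p = 0.537). The controls were not above background and control replicates 2 and 3 held the same value to 6 decimals, so this difference is measured against a group at background and with nearly identical control values. Leaving out any 1 array gave differences from 0.55 to 0.84.

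Elane, the neighbour of Prtn3, encodes neutrophil elastase, which degrades elastin and bacterial proteins and whose gene is mutated in severe congenital and cyclic neutropenia in humans. Its values were 6.56 and 6.66 in the tumour-challenged arrays and 6.56, 6.56 and 6.77 in the controls (probe set 6769156). The groups overlapped, and 3 of the 5 arrays, from both groups, shared exactly the lowest value. The log2 difference was -0.021 ± 0.092 (SE), with a 95% interval from -0.27 to 0.23 and a limma adjusted p of 0.979. The Elane signal lay under the background level on all 5 arrays. Its means were 6.61 ± 0.067 (SD, n = 2) after tumour challenge and 6.63 ± 0.12 (SD, n = 3) in controls.

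Ctsg encodes cathepsin G, a chymotrypsin-like protease whose gene lies among the mast cell protease and granzyme genes. Its values were 5.97 and 6.16 after tumour challenge and 5.72, 5.77 and 5.71 in controls (probe set 6824867). The tumour-challenged arrays lay above all controls, by 0.21, with 0.19 between them. The log2 difference was 0.33 ± 0.077 (SE), or 1.26-fold, from 5.73 ± 0.028 (SD, n = 3) to 6.07 ± 0.13 (SD, n = 2), with a limma adjusted p of 0.643. All 5 values were below the background level. An exact permutation test over the arrays, two-sided, gave p = 0.2 for Prtn3, Ctsg and Mpo alike, the smallest p that the 10 splits of 2 against 3 arrays allow.

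Mcpt8, a basophil protease gene, was higher in the same arrays as Prtn3 and Ctsg. Its values were 7.86 and 7.47 after tumour challenge and 6.69, 6.73 and 6.65 in controls, a log2 difference of 0.98 ± 0.13 (SE, limma adjusted p = 0.537) from controls that were not above background. Of the 8 measured mast cell and basophil markers 3 had a positive difference and 5 a negative one, 6 were not above background in either group, and the mean log2 level over the list was 6.33 to 6.43 after tumour challenge and 6.26 to 6.34 in controls. Cpa3, Cma1, Ms4a2, Fcer1a, Gata2 and Tpsb2 were the 6 at background. Cpa3 and Gata2 were separate and lower, at -0.24 ± 0.078 and -0.165 ± 0.066 (SE), and Mcpt8 was the 1 marker of this list separate and higher. Of all probe sets 11.2% were separate and higher and 7.83% separate and lower, which applies to the lists below as well. Monocyte markers had a positive difference in 6 of 7, with a mean log2 level of 10.63 to 11.18 after tumour challenge and 10.09 to 10.63 in controls. Of these, Vcan, the gene of the proteoglycan versican, was at 2.23 ± 0.29, the coagulation factor gene F13a1 at 0.79 ± 0.34 and the fibronectin gene Fn1 at 0.65 ± 0.24 (SE), each with separate arrays. Ccr2, Csf1r and Cx3cr1 overlapped, at 0.044 ± 0.19, 0.068 ± 0.26 and 0.082 ± 0.28, as did Nr4a1 at -0.088 ± 0.18 (SE). The median of the monocyte list was 0.082, and its mean level was highest in tumour-challenged replicate 1 and lowest in control replicate 3. Lung epithelial markers had a positive difference in 5 of 6, with mean levels of 9.05 to 9.08 and 8.45 to 9.10. The surfactant genes Sftpa1 and Sftpb were separate and higher, by 0.89 ± 0.37 and 0.31 ± 0.078 (SE), and 0 of the 6 were at background in both groups. Sftpc, Scgb1a1, Cdh1 and Epcam overlapped, at 0.50 ± 0.40, 0.285 ± 0.55, 0.12 ± 0.16 and -0.16 ± 0.145 (SE). Among eosinophil markers 2 of 5 were positive, with mean levels of 6.51 to 6.67 after tumour challenge and 6.71 to 6.90 in controls. Epx and Il5ra were at background in both groups, 1 marker was separate and higher and 2 separate and lower. The largest difference was that of the eotaxin receptor gene Ccr3, at -1.48 ± 0.31 (SE) with its tumour-challenged mean not above background. Il5ra differed by -0.37 ± 0.070, and Prg2, a major basic protein gene whose controls were not above background, by 0.83 ± 0.18 (SE). The part of these cells in the Prtn3 and Ctsg values was not tested.

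Mpo encodes myeloperoxidase, the haem enzyme that makes hypochlorous acid from hydrogen peroxide and chloride and is the most abundant protein of the primary granule. Its values were 7.37 and 6.60 in tumour-challenged replicates 1 and 2 and 7.92, 7.48 and 7.79 in the controls (probe set 6783338). Both tumour-challenged arrays lay below all controls, but the gap of 0.11 was smaller than the distance of 0.78 between the tumour-challenged arrays and of 0.44 among the controls. The log2 difference was -0.75 ± 0.28 (SE), the means being 6.98 ± 0.55 (SD, n = 2) and 7.73 ± 0.23 (SD, n = 3), which is 1.68-fold lower (limma adjusted p = 0.758, unadjusted p = 0.0523). The size depended on single arrays, at -1.14 when tumour-challenged replicate 1 was left out. It was -0.36 when tumour-challenged replicate 2 was left out, whose own value lay below the background level.

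Negative differences outnumbered positive ones in other marker lists as well, though not always with the order of arrays seen for Mpo. B-cell markers had a negative difference in 4 of 4, with a mean log2 level of 7.49 to 7.59 after tumour challenge and 7.96 to 8.21 in controls, and none was at background in both groups. Alveolar macrophage markers had a negative difference in 5 of 6, with mean levels of 8.44 to 8.62 and 8.88 to 9.02, likewise with none at background in both groups. Dendritic cell markers were lower in 4 of 6, with overlapping mean levels of 6.93 to 7.33 and 7.15 to 7.18. The dendritic cell mean of tumour-challenged replicate 1 (7.33) lay above every control. The B-cell mean, unlike Mpo, was lower in tumour-challenged replicate 1 (7.49) than in replicate 2 (7.59). Among the dendritic cell markers the lectin gene Clec9a differed by -1.17 ± 0.26 and Flt3, a receptor gene of progenitors and dendritic cells, by 1.27 ± 0.49 (SE). Xcr1, Zbtb46 and Itgae of the same list were at background in both groups. The part of B cells, alveolar macrophages and dendritic cells in the Mpo values was not tested. The genes whose pattern over the 5 arrays came nearest to that of Mpo, by the root mean square difference of values centred on each gene's own mean among 7341 genes above background, were Dgke (0.047), which encodes a diacylglycerol kinase, AI504432 (0.069) and Trim69 (0.071), a tripartite motif gene. Their log2 differences were -0.81 ± 0.28, -0.73 ± 0.27 and -0.72 ± 0.30 (SE). Because these genes were picked for their likeness on the same arrays, differences near that of Mpo follow from the choice. Mpo was the 1 member with a range of at least 1 log2 over the arrays (1.32), so this likeness was computed for it alone.

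Ctsc encodes cathepsin C (dipeptidyl peptidase I), which removes the N-terminal dipeptide from the proforms of elastase, proteinase 3 and cathepsin G and so makes them active. It is also expressed in macrophages and lymphocytes. Its values were 11.42 and 11.05 after tumour challenge and 11.18, 11.05 and 10.87 in controls (probe set 6962376), and the groups overlapped. The log2 difference was 0.20 ± 0.16 (SE), with a 95% interval from -0.22 to 0.63 and a limma adjusted p of 0.854. It was 0.39 when tumour-challenged replicate 2 was left out and 0.016 when replicate 1 of that group was.

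Srgn encodes serglycin, the proteoglycan whose negatively charged side chains retain elastase and other basic proteins in granules of many blood cells. Its values were 12.39 and 12.09 after tumour challenge and 12.22, 12.38 and 12.50 in controls (probe set 6774400). The groups overlapped, and the log2 difference was -0.12 ± 0.14 (SE), with a 95% interval from -0.49 to 0.24 (limma adjusted p = 0.883). The packing and processing genes thus gave strong signals in both groups, and their intervals leave room for changes of up to 0.63 upward and 0.49 downward.

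The remaining 2 members gave no signal above background. Ms4a3, a four-span membrane protein gene of granulocyte and monocyte precursors, had values of 5.39 and 5.67 after tumour challenge and 5.42, 5.50 and 5.39 in controls (probe set 6871570), a difference of 0.090 ± 0.11 (SE, 95% interval from -0.20 to 0.38, limma adjusted p = 0.892). Bpi, which encodes a protein that binds endotoxin of Gram-negative bacteria, stood at 6.17 on all 5 arrays (probe set 6882727), with a difference of -0.002 ± 0.048 (SE, 95% interval from -0.13 to 0.13, limma adjusted p = 1.0). For Bpi 4 of the 5 arrays shared exactly the lowest value. Of all probe sets 3.09% had 4 or more arrays at their lowest value and 5.41% had 3 or more, and values equal on 2 or more arrays occurred in 31.9% of probe sets under the background level and in 6.93% of those above it. A difference near 0 in such a probe set describes equal deposited values and does not measure the transcript.

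**Figure D3:**
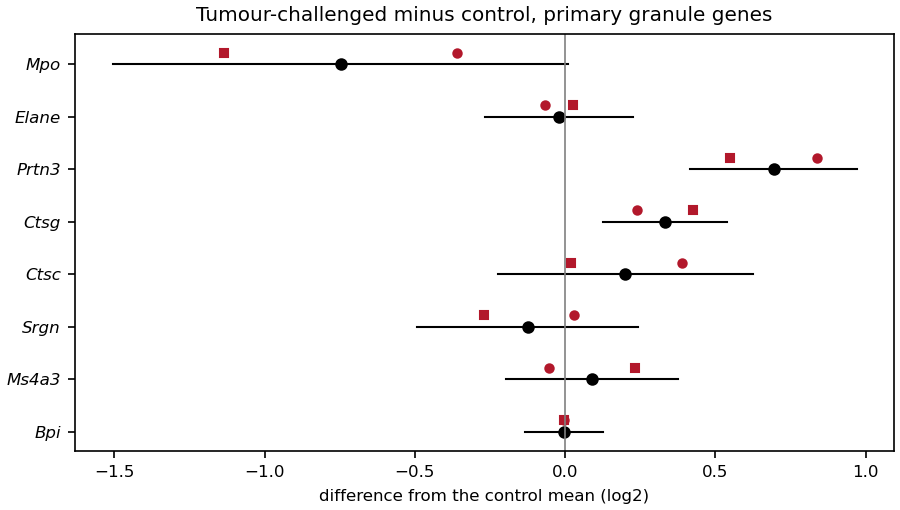
Log2 difference from the control mean for the 8 members: black points are tumour-challenged minus control with 95% intervals from the limma fit, and red circles and squares are tumour-challenged replicates 1 and 2. The intervals of Prtn3 (0.42 to 0.97) and Ctsg (0.13 to 0.54) lie above 0 before adjustment over all probe sets, and that of Mpo reaches from -1.51 to 0.011.

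Other cargo of the azurophil granule consists mostly of lysosomal enzymes. Of 11 measured genes 9 had a positive difference, 3 were separate and higher, 1 separate and lower, and 0 passed the test. Of all probe sets 11.2% were separate and higher and 7.83% separate and lower. The median was 0.23 log2, beside 0.024 over all probe sets. These medians cover unlike genes, because 9 of the 11 were above background in both groups, while every array's median lay below the background level. Naaa, an acid amidase of lipid mediators, differed by 0.75 ± 0.19 (SE), the beta-glucuronidase gene Gusb by 0.38 ± 0.21 and Hexa, a hexosaminidase subunit gene, by 0.37 ± 0.20. The separate and lower gene was Gla, alpha-galactosidase, at -0.34 ± 0.091 (SE), named after its value was seen. The mean level of the list was highest in tumour-challenged replicate 1 (9.24) and lowest in control replicate 3 (8.76), the arrays with the highest and lowest upper quartiles. It was 8.92 in tumour-challenged replicate 2 and 8.97 in control replicate 1, so the groups overlapped. Macrophages contain these enzymes too.

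Genes for granule sorting and protease biogenesis, several of them neutropenia genes in humans, were positive in 8 of 9 (median 0.16, 4 separate and higher, 0 passing the test). The share separate and higher over all probe sets was 11.2%. Ctsl, a cysteine protease gene, differed by 0.30 ± 0.12 (SE), Jagn1, required for granulocyte secretion, by 0.23 ± 0.11, and the glucose-6-phosphatase gene G6pc3 by 0.19 ± 0.080. This list too was highest in tumour-challenged replicate 1 (8.96) and lowest in control replicate 3 (8.61). Of the inhibitors of the granule proteases 3 were measured: Serpina3n, with controls not above background, differed by 0.80 ± 0.42, the leukocyte protease inhibitor gene Slpi by 0.27 ± 0.14, and Serpinb6a by -0.061 ± 0.24 (SE), and 0 passed the test.

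Of the listed transcription factors of myeloid development, Cebpa and Cebpe were higher on both tumour-challenged arrays than on any control, and none passed the test. Such separation was seen in 11.2% of all probe sets. Cebpa, which commits progenitors to the granulocyte lineage, had values of 8.28 and 8.36 after tumour challenge and 8.08, 7.86 and 7.81 in controls, a difference of 0.40 ± 0.10 (SE, limma adjusted p = 0.662). Cebpe, needed for secondary granules, differed by 0.29 ± 0.084 (SE, limma adjusted p = 0.692), again with separate arrays. Irf8, a monocyte and dendritic cell factor, differed by 0.27 ± 0.22 with overlapping arrays. Spi1, the PU.1 gene, differed by -0.007 ± 0.15 (SE). Cebpb and Myb, both not above background in either group, differed by 0.001 ± 0.089 and -0.033 ± 0.082 (SE). Over the 10 measured factors 7 differences were positive and 2 negative, and the median was 0.034. The repressor gene Gfi1 was listed at 7.18 on all 5 arrays, with equal deposited values.

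Progenitor and proliferation genes did not lie higher. Of 10 measured 4 differences were positive and 6 negative, with a median of -0.11, 1 separate and higher, 2 separate and lower, and 0 passing the test. The shares over all probe sets were 11.2% separate and higher and 7.83% separate and lower. Cd34, a stem and progenitor cell surface gene, differed by -0.38 ± 0.17 (SE), the topoisomerase gene Top2a by -0.35 ± 0.15 and the cell cycle marker Mki67 by -0.33 ± 0.17. For Top2a the tumour-challenged mean was not above background. Cdk1, Ccna2, Birc5 and Sox4 were not above background in either group.

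Secondary granule genes had larger differences in the same arrays. All 9 measured were positive, 8 with separate arrays, where 11.2% of all probe sets were separate and higher. The median was 1.03 log2 against 0.044 for the members. The list includes Mmp9 and Chil3, which were also counted as mature neutrophil and alveolar macrophage markers, respectively. Ngp differed by 2.12 ± 0.18, Ltf by 1.83 ± 0.10 and Lcn2 by 1.67 ± 0.17 (SE), the Ltf difference being measured against controls that were not above background, and 0 of 9 passed the test over all probe sets. The difference between the lists was not tested, because both were chosen with values of these arrays known.

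**Figure D4:**
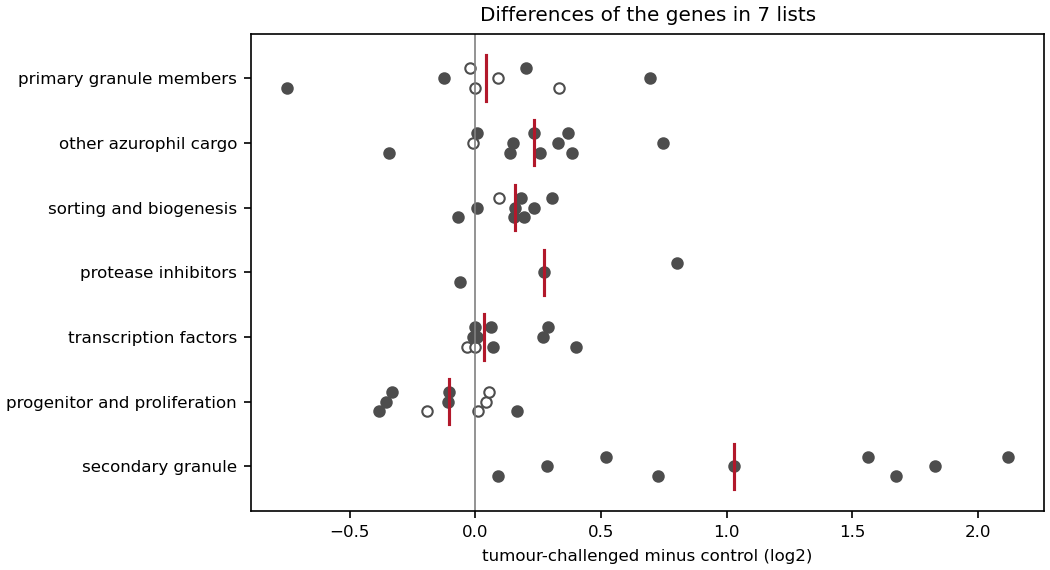
Log2 differences (tumour-challenged minus control, horizontal axis) of the single genes in 7 lists, with each list's median as a red line and open circles for genes not above background in either group. The primary granule members spread from -0.75 to 0.69 around a median of 0.044, and the secondary granule genes lie between 0.092 and 2.12.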

How the data were processed

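RNA of sorted CD11b+Gr1+ lung cells was amplified and labelled for whole-transcript arrays, per the labels' protocols. The deposited table holds log2 values of 16661 probe sets on 5 arrays. Per the submitters' processing notes they were computed with RMA, and the build mm8 is named without its use. No RMA version or filter is given in these sources. The platform annotation gives 14939 probe sets a single symbol, 989 several, and leaves 733 unnamed here. A gene with several probe sets was represented by the one with the highest mean, and each member had 1. Tumour-challenged minus control was fitted with limma 3.58.1 (R 4.3.3) on all probe sets (3 residual and 1.36 prior degrees of freedom), two-sided, with Benjamini-Hochberg adjustment and a threshold of 0.05. Intervals are 95% from the moderated fit. The precision is limited by the 5 arrays. The fit was tested on simulated data. Exact tests used scipy 1.17.1. The members and gene lists were chosen with earlier results of these data known. Named genes are every member, the 3 of each pathway list with the largest difference, and the 3 genes most like a member of wide range. Outside this rule, Spi1, Myb, Cebpb, Gfi1 and Gla were named after their values were seen. Marker genes are named where they moved with a result or were at background. Alternatives were centring, quantile normalization, an intensity trend with robust prior, a dim filter, leaving out each array and a replicate block. Cross-hybridisation was not tested.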

Additional observations from a re-analysis of the deposited data

How the results depend on the processing

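Over the 10 alternatives no member passed the limma test at an adjusted p under 0.05, and the lowest adjusted p was 0.196, for Prtn3. Prtn3 (0.55 to 0.84) and Mpo (-1.14 to -0.36) kept their direction in all 10 and Ctsg (0.24 to 0.43) in the 9 that could be run, since Ctsg and Ms4a3 fall among the dimmest 25% of probe sets. Ctsc also kept its direction. Leaving out 1 array, Elane ranged from -0.068 to 0.047, Ms4a3 from -0.052 to 0.23 and Srgn from -0.28 to 0.029, and quantile normalization gave Bpi 0.002. The signs of Elane and Bpi turned around values near 0. Ms4a3 and Srgn changed sign only when tumour-challenged replicate 2 was left out, so their direction depended on that array. Each array centred on its median gave 1 probe set higher at an adjusted p under 0.05, where the deposited values gave 0. At an unadjusted p under 0.05, leaving out 1 array gave 436 to 1256 probe sets higher and 385 to 1008 lower (the highest counts without tumour-challenged replicate 2 and 1, respectively), and quantile normalization gave 890 lower. Over 2-fold, leaving out 1 array gave 17 to 57 higher and 23 to 75 lower (45 without control replicate 2). The cause was not tested. With the replicate number as a block Elane was at 0.047 and 749 probe sets were lower at an unadjusted p under 0.05. Only 2 numbers occur in both groups and no label says that they pair samples. The median over the members stayed between -0.011 and 0.061. No member has several probe sets, so the planned choice between them gave no value.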

Other observations

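Markers of lymphocytes and platelets, which also express Srgn, gave the following values. T and NK cell markers had 3 positive and 5 negative differences among 8, with Gzmb, a granzyme stored with serglycin, at -0.61 ± 0.24 (SE) and Gzma at -0.17 ± 0.24. The tumour-challenged mean of Gzmb was not above background. Platelet markers had 3 positive differences among 4. The chemokine genes Ppbp and Pf4 were at 1.00 ± 0.39 and 1.11 ± 0.54 (SE), the latter with controls not above background. Their tumour-challenged values were 10.09 and 8.98 for Ppbp and 8.63 and 7.17 for Pf4, and the groups overlapped for Pf4. Itga2b, not above background in either group, differed by 0.039 ± 0.054 and Gp9 by -0.068 ± 0.265 (SE). Mature neutrophil markers had 2 positive and 5 negative differences among 7, with the decoy receptor gene Il1r2 at -0.30 ± 0.089 (SE). None passed the limma test over all probe sets.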
